A study of Rattus norvegicus with 12 samples.

Results

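The 62 genes described here are those whose names on the array begin with Vps (27 genes), Snx (26 genes) or Chmp (9 genes) followed by a digit, the families of vacuolar protein sorting subunits, sorting nexins and charged multivesicular body proteins. They were chosen by gene name alone, on 95 of the 41012 non-control probes of a rat Agilent oligonucleotide array that carries 35287 gene names. No measured value entered that choice, but the families were taken up with earlier results of these data known, so every count and median over the families is a description and supports nothing by itself. Of the 62 genes, 36 had 1 probe and 26 had several, up to 4. Genes of the same pathways under other names, such as Pik3c3, are not in the families and are given separately.

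Male Sprague-Dawley rats gave left ventricle and whole blood RNA after they had received amiodarone by mouth at 300 mg/kg per day for 10 days or the vehicle, 1% methylcellulose. Amiodarone is an antiarrhythmic drug and a cationic amphiphile that gathers in late endosomes and lysosomes. Each of the 4 groups (vehicle heart, amiodarone heart, vehicle blood and amiodarone blood) had 3 pools and 1 single-colour array per pool, 12 arrays in all, and the labels name no genetic change. The labels give an age of 10 weeks at the start in the protocol and of 11 weeks for the samples, and do not say how many rats made up a pool or whether heart and blood pools share animals, so p-values measure the spread between pools only. Pools are bulk tissue: fewer cells of a type and less RNA per cell cannot be told apart.

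Proteins taken into a cell reach the early endosome and are there either returned or destroyed. Retromer, a trimer of Vps26, Vps29 and Vps35, works with sorting nexins that bind curved, phosphoinositide-rich membrane to return receptors to the Golgi or the cell surface. The ESCRT complexes act in sequence on ubiquitin-tagged cargo: ESCRT-I and ESCRT-II gather it, the Chmp subunits of ESCRT-III form filaments that bud vesicles into the endosome, and the Vps4 ATPases take the filaments apart. HOPS and CORVET are tethers with a shared core of Vps11, Vps16, Vps18 and Vps33a that lead endosomes to fuse with each other and with lysosomes. GARP, built on Vps52, Vps53 and Vps54, tethers vesicles that come back from endosomes at the Golgi.

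Every value below is the signal of 1 designed probe of 60 bases, and the probes of the genes on which the results turn are shown here because a value belongs to that stretch of transcript and not to the whole gene. All are taken from the deposited scanner files, written as those list them and in lower case throughout, with positions on rat build rn4. The files list the probe of Vps26b at chr8_random:197866-197925, of Vps35 at chr19:23161435-23161494, of Vps37b at chr12:33711691-33711750, of Vps33b at chr1:136108732-136109102, of Vps54 at chr14:102070934-102070993 and of Snx27 at chr2:189484605-189493750. The stretches of Vps33b and Snx27 are longer than the probe, so these probes are listed across a gap in the genome. The exon or untranslated region of each probe is not given here, since no annotation of that build was used.
Vps26b: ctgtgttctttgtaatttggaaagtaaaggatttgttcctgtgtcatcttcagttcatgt
Vps35: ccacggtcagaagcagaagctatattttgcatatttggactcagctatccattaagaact
Vps37b: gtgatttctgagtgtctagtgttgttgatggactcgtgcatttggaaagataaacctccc
Vps33b: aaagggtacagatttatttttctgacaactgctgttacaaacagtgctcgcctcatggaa
Vps54: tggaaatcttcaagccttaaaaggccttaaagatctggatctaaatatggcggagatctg
Snx27: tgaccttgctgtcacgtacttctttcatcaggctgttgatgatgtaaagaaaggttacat

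The blood arrays differed in brightness between the groups, and the way this is treated decides what is said of blood. The 75th percentile of the signal was 134 ± 29.6 (SD, n = 3) in vehicle heart and 121 ± 25.8 (SD, n = 3) in amiodarone heart, against 70.3 ± 14.9 (SD, n = 3) in amiodarone and 23.2 ± 2.66 (SD, n = 3) in vehicle blood. Of the 62 genes, 52 to 58 were well above background on a heart array, 36 to 38 on a vehicle blood array and 48 to 50 on an amiodarone blood array. Values were scaled on each array's 75th percentile; leaving that out adds 1.58 to every log2 difference in blood and -0.14 to every one in heart. Signals are given below as the files hold them, in arbitrary units and without scaling. Log2 differences are amiodarone minus vehicle after scaling with their standard error (SE) unless no scaling is stated, with 3 arrays in each group. Adjusted p-values are those of limma's moderated test over all features, with 0.05 as the threshold.

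Testing in a tissue required that all 3 arrays of a group, either one, showed the probe well above background, which held for 54 genes in heart and 47 in blood. Both tissues tested 45 genes, 9 were tested in heart alone, 2 (Snx10 and Snx20) in blood alone, and 6 (Snx22, Snx25, Snx30, Snx32, Vps8 and Vps39) in neither. Vps8 belongs to CORVET alone and Vps39 to HOPS alone, so of these genes only the core shared by both tethers and Vps33b were tested. In blood, 34 genes were measured on all arrays of both groups, 12 on all arrays of the amiodarone group only, and 1 on all arrays of the vehicle group only. The genes that passed through 1 group are biased towards a difference, and the counts are therefore also given for the 34.

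In the heart, few of these genes differed between amiodarone and vehicle pools. Vps37b, an ESCRT-I subunit that binds Tsg101, fell, and Vps33b, an Sec1/Munc18 protein related to the core subunit Vps33a, rose. These were 2 of 54 genes (3.70%), with 1 in each direction, where 8.44% of all 17443 features passed the threshold (4.40% higher and 4.04% lower). The median difference of the 54 genes was 0.09, that of all features 0.03, and 33 of the 54 differences were above 0. Before adjustment 7 of the 54 had p below 0.05.

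Vps37b had signals of 118, 196 and 201 in the vehicle heart pools and 61.2, 90.8 and 75.1 in the amiodarone pools. Each amiodarone pool lay below each vehicle pool, with and without scaling. The scaled difference was -1.02 ± 0.17 (adjusted p = 0.012), and -1.16 without scaling (adjusted p = 0.035). The call was lost without vehicle replicate 3 (-0.88, adjusted p = 0.051), without amiodarone replicate 2 (-0.99, adjusted p = 0.052) and with all 12 arrays in 1 limma fit (adjusted p = 0.088). The other Vps37b probe was not well above background on all arrays of either heart group and was not tested there.

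Vps33b had signals of 136, 207 and 192 in vehicle heart and 209.8, 307 and 203 in amiodarone heart. These ranges overlap. After scaling, its log2 levels were 0.36, 0.33 and 0.55 in vehicle and 1.02, 1.03 and 0.88 in amiodarone pools, which do not overlap, and the difference was 0.56 ± 0.14 (adjusted p = 0.047). It did not pass without scaling (0.43, adjusted p = 0.80) or when any 1 of the 6 heart arrays was left out (0.52 to 0.63, adjusted p = 0.072 to 0.15). The dimmer Vps33b probe differed by 0.33 in heart and did not pass either.

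No retromer subunit passed the threshold in heart. Vps35, the scaffold of the trimer, had signals of 1465, 2058 and 1419 in vehicle and 1820.1, 2451 and 1356 in amiodarone heart, a scaled difference of 0.31 ± 0.18 (adjusted p = 0.34). Vps26b, an alternative form of the arrestin-like subunit, had 1215, 1853 and 1621 in vehicle and 1280.3, 1755 and 1255 in amiodarone heart, a difference of 0.02 ± 0.13 (adjusted p = 0.96). The groups overlap for both genes. Vps26a differed by 0.10 ± 0.15 and Vps29, the phosphoesterase-fold subunit, by 0.19 ± 0.18.

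Among the retromer sorting nexins, Snx2 and Snx5 came closest to the threshold in heart. Snx2 had scaled log2 levels of 1.51, 1.80 and 1.76 in vehicle and 2.56, 2.27 and 2.14 in amiodarone heart, a difference of 0.63 ± 0.17 (adjusted p = 0.060). Snx5, which dimerizes with Snx1 or Snx2, differed by 0.48 ± 0.14 (adjusted p = 0.089). Neither passed. The scaled groups do not overlap for either, as held for 12 of the 54 genes. The share over all features is not given here, so groups apart do not mark out Snx2 or Snx5. Their partners Snx1 (-0.11) and Snx6 (0.13) did not pass the threshold either. Vps54 had the largest positive difference of the 54 genes in heart, 0.90 ± 0.30 (adjusted p = 0.11), from a dim probe that was well above background on 2 of 3 vehicle arrays.

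None of the 12 ESCRT-III and Vps4 genes or the 2 ESCRT-II genes passed in heart under limma's threshold, where none of them had an unadjusted p below 0.05 either. Their differences ran from -0.20 (Chmp6) to 0.37 (Chmp2b) for ESCRT-III and Vps4, from -0.10 (Vps36) to 0.11 (Vps25) for ESCRT-II. Of the HOPS core, Vps11 differed by 0.06 ± 0.22, Vps16 by 0.01 ± 0.45, Vps18 by -0.14 ± 0.23 and Vps33a by 0.25 ± 0.26. Several genes with more than 1 tested probe had probes of opposite sign in heart (Chmp1b, Chmp7, Snx12, Snx6, Vps11, Vps13a, Vps26b, Vps36 and Vps37a), and none of those probes passed the threshold.

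Replicates 1 and 2 of each group share 1 number in the labels' array identifiers and replicate 3 has another, taken here as the slide. Within the first slide the median heart difference of the 54 genes was 0.14 and within the other 0.04, and with slide as a block Vps37b was the 1 gene that passed. In heart the summed signal of 5 red cell genes, in multiples of the 75th percentile, was 90.4 to 124 in vehicle and 18.9 to 25.0 in amiodarone pools, with 3 of the 5 lower. Fibroblast markers were 3 lower of 5, neutrophil markers 2 higher of 2 tested, platelet markers 2 higher of 3, macrophage markers 2 higher of 6, and endothelial and cardiomyocyte markers 0 of 5 and 0 of 8. The part of these cells in the Vps37b and Vps33b results was not tested.

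**Figure D1:**
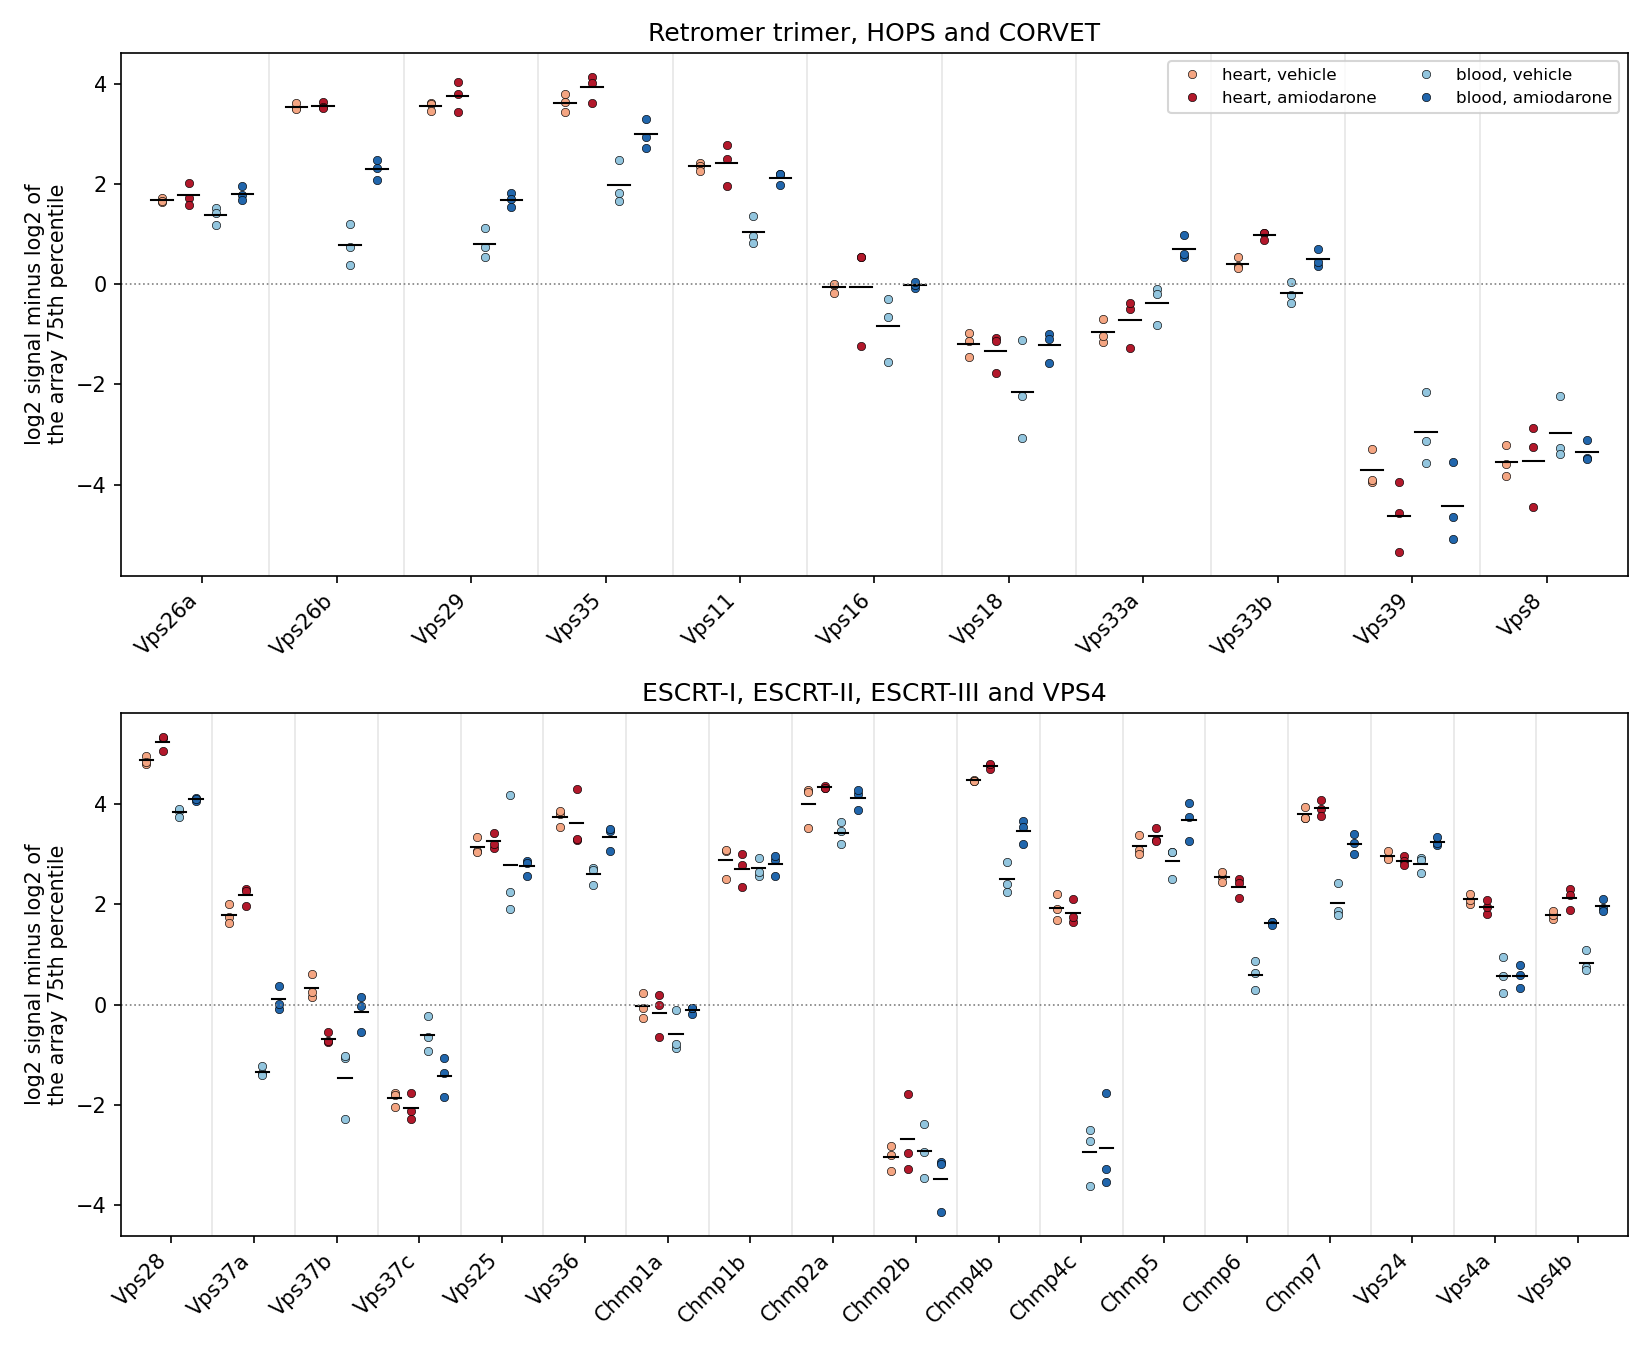
Scaled log2 level of each gene on each of the 12 arrays (points, 3 per group; horizontal bars, group means), for retromer, HOPS and CORVET (top) and the ESCRT subunits with VPS4 (bottom). Levels of different genes come from different probes and are not comparable; Vps37b is the gene whose amiodarone heart points all lie far below the vehicle heart points, and Vps26b, Vps37a and Chmp7 show blood groups well apart.

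In scaled blood, most of these genes were higher in the amiodarone pools. Of 47 genes tested, 29 (61.7%) were higher and 2 (Snx26 and Vps37c) lower, together 66.0%, where 68.1% of all 15626 features passed (41.5% higher and 26.6% lower). The share that passed in either direction was thus near that of the array, with more of it higher. The median difference was 0.86 for the 47 genes, 0.73 for the 34 measured on all 6 arrays, and 0.75 with the genes not well above background on any vehicle array set at their lower bound, against 0.46 for all features. Of the 34 genes, 22 were higher and 1 lower. Neither a share nor a median over all features measured on all 6 arrays is given here. The 0.46 is for all 15626 features and holds no bounds, so only the 0.86 is set against a like value. Without scaling, 45 of the 47 were higher and 0 lower, where 77.3% of features passed (75.4% higher and 1.96% lower). With normexp background correction in place of the scanner's own, 0 of 47 passed under limma, 12 had an unadjusted p below 0.05, and 7.92% of features passed (1.52% higher and 6.39% lower). The offset of 50 in that correction exceeds the 75th percentile of the vehicle blood arrays, which shrinks their differences by construction.

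Vps26b had the largest rise among genes measured on all 6 blood arrays. Its signals were 42.5, 26.2 and 55.4 in vehicle and 467, 229.7 and 369 in amiodarone blood. All amiodarone pools lay above all vehicle pools, and the difference was 1.52 ± 0.25 (adjusted p = 0.0022) after scaling and 3.11 ± 0.38 without. Its dimmer probe, not well above background on any vehicle array, differed by 0.57.

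Vps35 had signals of 88.7, 64.3 and 134 in vehicle and 827, 357 and 563 in amiodarone blood and rose by 1.00 ± 0.27 (adjusted p = 0.014). Vps29 had 42.5, 29.5 and 52.8 against 296, 158 and 237 and rose by 0.88 ± 0.21 (adjusted p = 0.0084). Vps26a had 72.7, 45.5 and 64.7 against 326, 185 and 235, a difference of 0.43 ± 0.18 (adjusted p = 0.068) that did not pass. The blood groups do not overlap for any retromer subunit. After scaling 3 of 4 passed, where 41.5% of all features were higher, and 4 of 4 without, where 75.4% were. Groups apart were common in blood: 38 of the 47 genes tested had them after scaling and 45 without. Groups called apart, here and below, therefore do not mark out a gene. The share over all features is not given here. The Vps35 call was lost without amiodarone replicate 1, where the difference was 0.84 (adjusted p = 0.052).

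Of the retromer sorting nexins, 4 of 5 rose in scaled blood, where 41.5% of all features were higher. Snx6 differed by 1.08 ± 0.25 (adjusted p = 0.0082), Snx5 by 0.70 ± 0.19 (adjusted p = 0.014) and Snx1 by 0.56 ± 0.21 (adjusted p = 0.045). Snx2, the partner that led in heart, differed by 0.25 ± 0.16 (adjusted p = 0.20) in blood and did not pass. The Snx1 call was lost when any blood array but vehicle replicate 1 was left out, with differences of 0.43 to 0.65 (adjusted p = 0.062 to 0.13). Snx27, the PDZ-domain nexin that links retromer to surface receptors, had signals of 3.80, 2.14 and 8.11 in vehicle and 84.2, 37.1 and 69.3 in amiodarone blood. None of its vehicle arrays was well above background, so the rise is given as at least 2.24-fold after scaling and at least 6.71-fold without (adjusted p = 0.0031). In such a bound the vehicle level is, on each array, the probe's own signal or, where that is lower, the dimmest signal flagged as well above background. Here and below, an adjusted p-value beside a bound is limma's for the fitted difference. It rests on signals near background and does not test the bound.

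The 4 genes of the HOPS core had fitted differences of 0.81 to 1.08 in scaled blood. Of these 2 passed, where 41.5% of all features were higher. The value of Vps18 is no measured size, since none of its vehicle arrays was well above background. That of Vps16 depends on the probe read, as given below. Vps11 had signals of 64.8, 39.3 and 42.8 in vehicle and 383, 249 and 289 in amiodarone blood and rose by 1.08 ± 0.20 (adjusted p = 0.0035). Vps33a, the core's Sec1/Munc18 subunit, had 23.8, 11.4 and 21.2 against 165, 79.0 and 111 and rose by 1.07 ± 0.25 (adjusted p = 0.0080). Groups are apart for both genes.

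Vps16, which holds Vps33a in the complex, had 20.7, 12.8 and 8.28 against 79.8, 53.4 and 75.5 and differed by 0.81 ± 0.32 (adjusted p = 0.052). Vps18 had 5.37, 9.31 and 2.86 against 28.2, 27.4 and 34.5, with no vehicle array well above background. Its fitted difference was 0.93 ± 0.47 (adjusted p = 0.11), and its bound was at least 1.06-fold after scaling and at least 3.19-fold without. Neither Vps16 nor Vps18 passed after scaling, and both passed without. Vps33b, which pairs with Vipas39 outside the core, had 21.7, 20.9 and 18.7 against 107, 88.0 and 99.6 and rose by 0.68 ± 0.19 (adjusted p = 0.017), a call lost without amiodarone replicate 2 (0.58, adjusted p = 0.057).

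The Vps16 value depends on which of its probes is read. The brighter probe, at chr3:118056552-118056611 on rn4, gave the 0.81 above, and the dimmer one, at chr3:118054042-118054101, gave -0.30 with an SE of 0.37. This was the only gene of the families whose tested probes had opposite signs in scaled blood. Both sequences are shown because the direction in blood rests on the one read.
Vps16, brighter probe: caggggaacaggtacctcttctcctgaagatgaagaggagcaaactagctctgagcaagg
Vps16, dimmer probe: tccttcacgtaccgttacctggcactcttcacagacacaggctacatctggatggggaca

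Some promoters of the families share letters that can be set beside these values. Promoters from RefSeq (build GRCr8, 250 bases before to 50 after the gene start) were found for 49 of the 62 genes. Each was searched for CACGTG, the E-box read by basic helix-loop-helix leucine zipper proteins, and for TCACGTGA, which contains it and is the centre of the element that TFEB is known to bind at lysosomal genes. Both strands read the same for either motif. CACGTG was in 9 of the 49 promoters (18.4%), against 2148 of all 33469 (6.4%) and 1533 of the 21851 of protein-coding genes (7.0%). TCACGTGA was in 5 of the 49 (10.2%), against 260 of all (0.8%) and 223 of the protein-coding ones (1.0%). The 9 genes are Snx18, Snx2, Snx8, Vps11, Vps16, Vps26a, Vps33a, Vps37b and Vps8, and the longer motif was in Snx2, Vps11, Vps16, Vps26a and Vps33a. The promoters of the tether genes Vps18, Vps33b, Vps39, Vps52, Vps53 and Vps54 held neither. The stretches upstream of Vps11, Vps16, Vps33a and Vps26a that hold the longer motif are shown 5′ to 3′ on the gene's strand, with CACGTG in capitals, at chr8:53595378-53595429 (minus strand), chr3:138075612-138075671 (plus), chr12:38685451-38685510 (plus) and chr20:30976890-30976949 (minus) on GRCr8.
Vps11: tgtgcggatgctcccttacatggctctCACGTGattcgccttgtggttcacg
Vps16: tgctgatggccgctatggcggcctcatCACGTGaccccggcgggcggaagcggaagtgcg
Vps33a: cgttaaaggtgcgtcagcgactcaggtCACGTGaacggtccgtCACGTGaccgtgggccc
Vps26a: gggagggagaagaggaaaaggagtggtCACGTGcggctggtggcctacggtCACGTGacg

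A match is a stretch of letters and not a measured binding site. The 8 genes with CACGTG tested in blood had a median scaled difference of 0.97 and the 30 tested ones whose promoters lacked it 0.78. Both medians use fitted values, also for genes not well above background on any vehicle array, such as Snx18. Of the genes with the longer motif, Vps11 differed by 1.08, Vps33a by 1.07, Vps16 by 0.81, Vps26a by 0.43 and Snx2 by 0.25 in blood. Only Vps11 and Vps33a of these passed. In heart the medians were 0.08 for 8 genes and 0.09 for 36. These values stand side by side without a test.

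ESCRT-III and Vps4 genes rose in 6 of 10 cases in scaled blood, and 0 fell. Of all features 41.5% were higher there and 26.6% lower. Chmp7, which seeds ESCRT-III at the nuclear envelope, had signals of 92.3, 70.0 and 129 in vehicle and 878, 434 and 686 in amiodarone blood and rose by 1.18 ± 0.23 (adjusted p = 0.0041). Chmp6, which couples ESCRT-II to ESCRT-III, had 46.0, 24.6 and 37.4 against 260.4, 170.1 and 219 and rose by 1.03 ± 0.20 (adjusted p = 0.0040). Chmp4b, the main filament subunit, had 134, 95.8 and 173 against 1054, 498 and 847 and rose by 0.96 ± 0.23 (adjusted p = 0.0084). The blood groups are apart for all 3.

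Chmp5 had 143, 165 and 197 against 1119.8, 517 and 1185 and rose by 0.82 ± 0.26 (adjusted p = 0.027). Chmp2a, which helps cap the filament, had 232, 221 and 298 against 1521, 794 and 1409 and rose by 0.68 ± 0.20 (adjusted p = 0.019). Both calls were lost without vehicle replicate 1, amiodarone replicate 1 or amiodarone replicate 3, where Chmp5 differed by 0.64 to 0.78 (adjusted p = 0.077 to 0.094) and Chmp2a by 0.57 to 0.64 (adjusted p = 0.057 to 0.072).

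Of the 2 Vps4 ATPases, Vps4b passed in scaled blood and Vps4a did not. Vps4b had 42.2, 32.5 and 50.9 in vehicle and 360.3, 206 and 268 in amiodarone blood and rose by 1.13 ± 0.19 (adjusted p = 0.0023). Vps4a had 29.6, 38.7 and 35.5 against 125, 93.0 and 92.5, a scaled difference of -0.01 ± 0.24 (adjusted p = 0.97). Without scaling both passed, at 2.72 and 1.57. The distance between the 2 genes was not tested.

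The other ESCRT-III genes did not pass after scaling. Vps24, now named Chmp3, had 191, 149 and 147 against 753, 503 and 745, a difference of 0.44 ± 0.17 (adjusted p = 0.054). Chmp1a had 23.5, 11.0 and 14.0 against 73.3, 51.3 and 70.1, and Chmp1b 150.1, 152 and 151 against 617, 419 and 431. Their scaled differences were 0.48 ± 0.24 and 0.09 ± 0.19, with overlapping scaled groups, and the 4 Chmp1b probes ranged from 0.09 to 1.00. Chmp1a and Chmp1b act on the late steps that recruit Vps4. Chmp2b and Chmp4c were not tested in blood, since no blood group had either one above background on each of its arrays. Chmp2b signals there were 4.84, 2.63 and 2.21 in vehicle and 9.50, 5.96 and 4.18 in amiodarone pools, against 10.7, 20.5 and 18.7 and 30.0, 19.5 and 11.3 in heart.

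Of ESCRT-II, Vps36, the subunit that binds ubiquitin and phosphoinositide, had 131, 133 and 155 in vehicle and 918, 453 and 834 in amiodarone blood and rose by 0.75 ± 0.20 (adjusted p = 0.014), a call lost without amiodarone replicate 1 (0.69, adjusted p = 0.051) or replicate 3 (0.67, adjusted p = 0.056). Vps25 had 94.0, 366 and 114 against 609, 321 and 518, a difference of -0.02 ± 0.55 (adjusted p = 0.98). The groups of Vps25 overlap, because vehicle replicate 2 lies above the other vehicle pools. In heart these genes had 1460.0, 2393 and 1515 against 2027, 1469.6 and 1078 for Vps36 and 882, 1345 and 1324 against 899, 1387 and 1177 for Vps25.

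Of the 4 ESCRT-I genes, 2 rose and 1 fell in scaled blood, where 41.5% of all features were higher and 26.6% lower. For Vps37a, vehicle signals of 9.79, 7.63 and 10.3 were not well above background, and amiodarone signals were 108, 51.1 and 74.3. By this probe it rose at least 2.65-fold after scaling and at least 7.94-fold without (adjusted p = 0.0012). Its other probe, well above background on all arrays of both blood groups, differed by 1.38 ± 0.28 after scaling. The bound therefore holds for the probe read only. Vps37b had 5.20, 9.66 and 11.9 against 92.5, 36.9 and 72.3 and rose by 1.31 ± 0.38 (adjusted p = 0.018), with 1 of 3 vehicle arrays well above background, a call lost without amiodarone replicate 1 (1.17, adjusted p = 0.062) or replicate 3 (1.25, adjusted p = 0.055), with normexp, and in the authors' deposited table (1.08, adjusted p = 0.060). Vps37c had 21.5, 10.7 and 15.5 against 23.2, 26.0 and 28.3 and a difference of -0.83 ± 0.27 (adjusted p = 0.030) after scaling, against 0.76 ± 0.35 (adjusted p = 0.056) without. The direction of Vps37c therefore turns with the scaling, and its scaled call was also lost without vehicle replicate 1 or 3 or amiodarone replicate 1 or 3 (-0.85 to -0.61, adjusted p = 0.053 to 0.097). Vps28 differed by 0.26 ± 0.16 (adjusted p = 0.18) and did not pass. Vps37a, Vps37b and Vps37c are alternative subunits of the same position in the complex.

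All 3 GARP genes rose in scaled blood, where 41.5% of all features were higher. Vps54 had signals of 3.64, 2.45 and 2.58 in vehicle and 66.0, 43.1 and 60.4 in amiodarone blood, with no vehicle array well above background, a rise of at least 2.07-fold after scaling and at least 6.21-fold without (adjusted p = 0.00094). Vps52, the core subunit shared with EARP, rose by 0.88 ± 0.24 (adjusted p = 0.016) and Vps53 by 0.87 ± 0.21 (adjusted p = 0.0096). The lipid transfer proteins Vps13a and Vps13d rose by 0.63 ± 0.21 (adjusted p = 0.029) and 1.07 ± 0.21 (adjusted p = 0.0043). The Vps52 call was lost without amiodarone replicate 1 (0.78, adjusted p = 0.057) or replicate 2 (0.77, adjusted p = 0.052). That of Vps13a was lost without vehicle replicate 1 or 3 or amiodarone replicate 1 or 3 (0.52 to 0.61, adjusted p = 0.053 to 0.10).

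Of the 11 other sorting nexins tested in blood, 5 rose and 1 fell after scaling, where 41.5% of all features were higher and 26.6% lower. Snx10, a nexin with a known part in osteoclasts, had signals of 4.88, 4.25 and 6.42 in vehicle and 45.4, 30.4 and 52.1 in amiodarone blood and rose at least 1.55-fold after scaling (adjusted p = 0.0015). Snx19 rose at least 1.88-fold (adjusted p = 0.0070) and Snx18 at least 1.20-fold (adjusted p = 0.019). The Snx18 call was lost without vehicle replicate 1 or 2 or amiodarone replicate 1 or 2 (fitted differences 0.89 to 1.08, adjusted p = 0.051 to 0.067). Snx20, a leukocyte nexin that binds the selectin ligand PSGL-1, had 59.5, 40.2 and 39.8 against 382, 218 and 296 and rose by 1.09 ± 0.19 (adjusted p = 0.0030). Snx14 rose by 0.84 ± 0.21 (adjusted p = 0.010). Snx15 had 142, 157 and 214 against 419, 262 and 413, a scaled difference of -0.50 ± 0.22 (adjusted p = 0.072) that did not pass. Snx26 had 16.5, 16.6 and 26.5 against 10.9, 22.4 and 13.8. Its unscaled groups overlap, and its difference was -1.95 ± 0.43 (adjusted p = 0.0063) after scaling and -0.36 ± 0.37 (adjusted p = 0.38) without. A Snx11 probe that was not the brightest of its gene passed the filter in blood through the amiodarone group alone. No vehicle array showed it well above background, so its fitted difference of 1.15 is no measured size. The brightest Snx11 probe was not tested there.

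**Figure D2:**
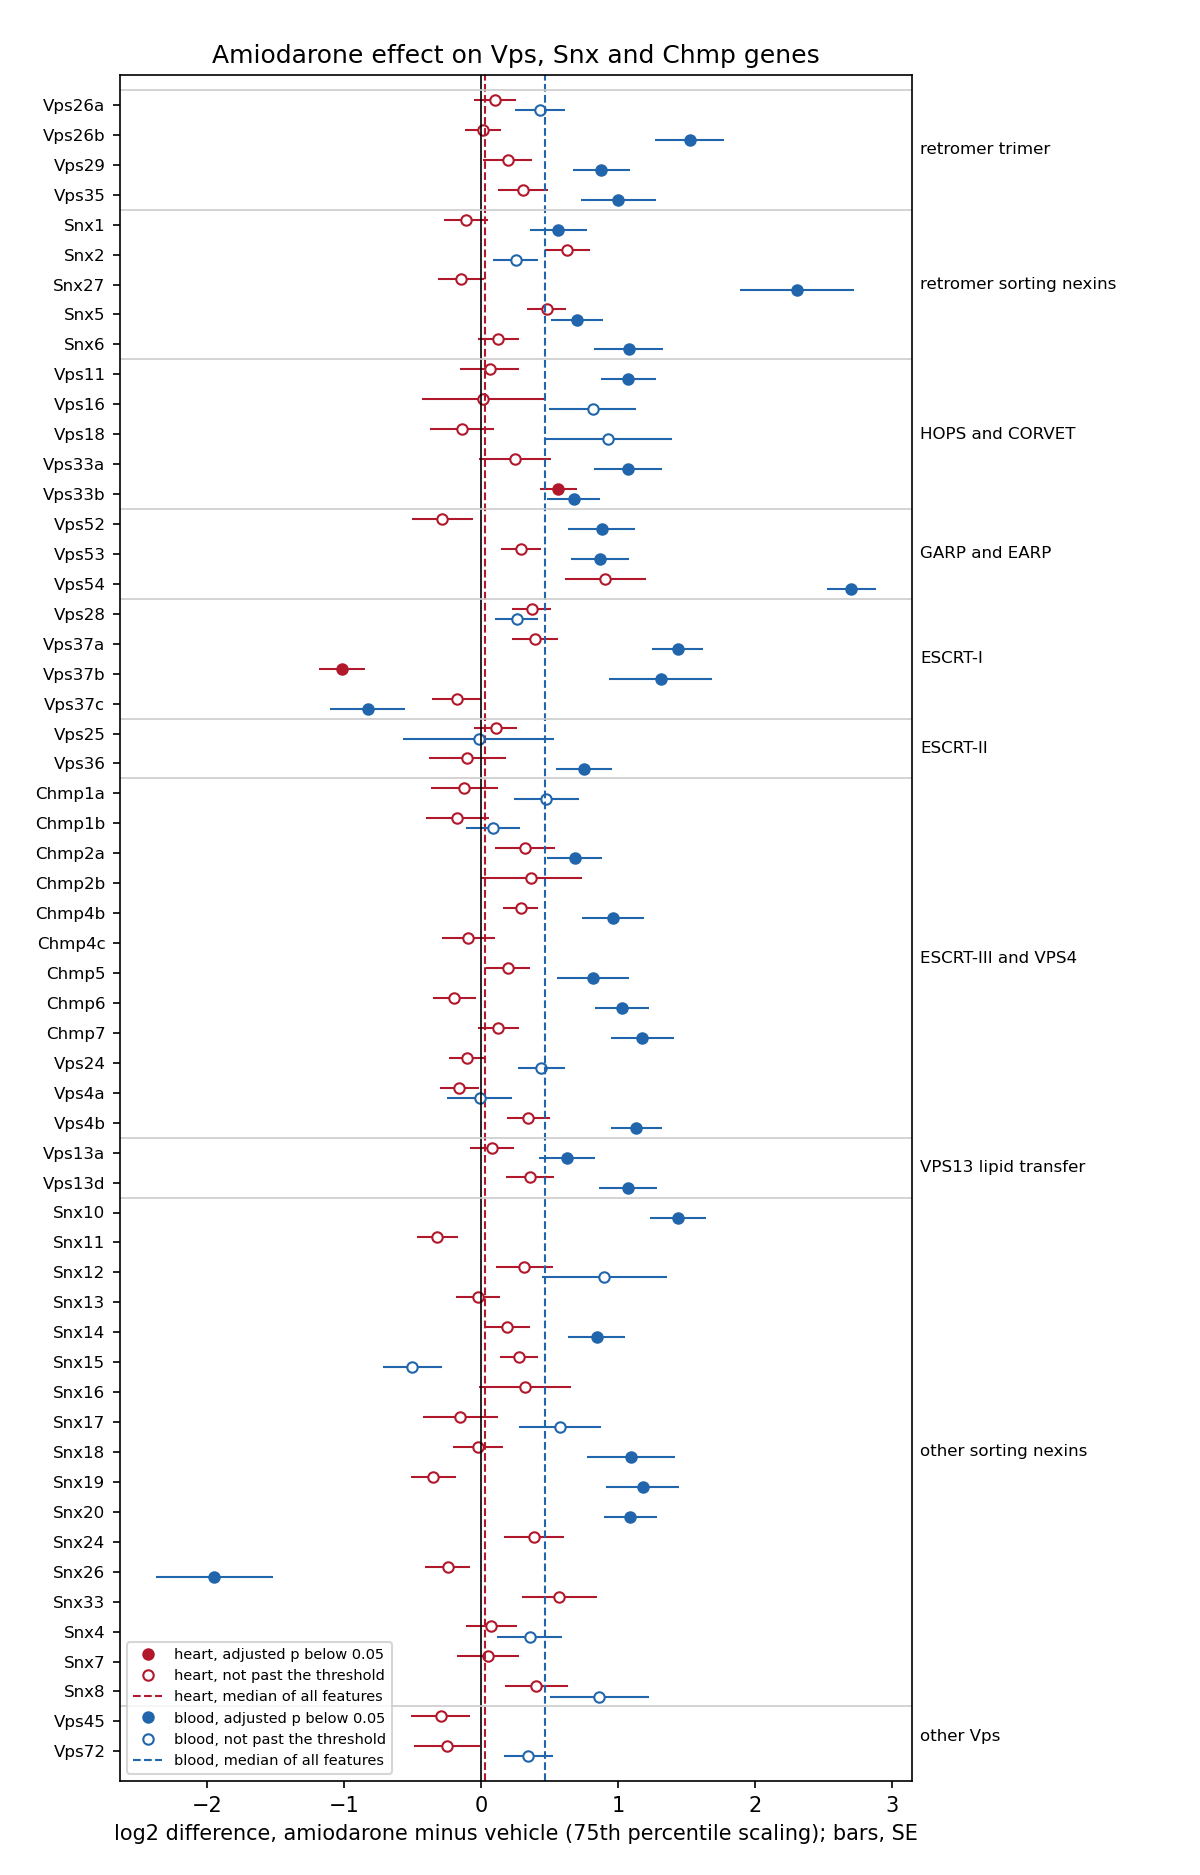
Scaled log2 difference between amiodarone and vehicle pools for the genes tested in heart (red) or blood (blue), by complex, with SE bars, 3 arrays in each group and filled points past the adjusted threshold. Vps33b and Vps37b are the 2 filled heart points; 35 of the 47 blood points lie right of the dashed line at the median of all features, and the 2 blood points past the threshold to the left are Snx26 and Vps37c, of which Vps37c turns positive without scaling. Points of genes not well above background in vehicle blood, such as Vps54 and Snx27, are fitted values and not the bounds given in the text.

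Cell type markers moved with the blood groups. The summed scaled signal of 5 red cell and reticulocyte genes was 10303 to 15261 in vehicle and 2655 to 4510 in amiodarone blood, with 5 of 5 lower. The sum of 5 neutrophil genes was 62.3 to 111 against 264 to 417, with 5 of 5 higher, and that of 6 monocyte and macrophage genes 215 to 283 against 542 to 642, with 5 higher and 1 lower. Natural killer markers were 5 higher of 6, T cell markers 4 higher of 6, platelet markers 3 higher of 4, and B cell markers 0 of 4. Cardiomyocyte markers, of which 8 of 8 were measured on every heart array, were measured for 0 or 1 gene on vehicle and 1 or 2 on amiodarone blood arrays. For the other lists, endothelial genes were 2 higher and 1 lower of 3 tested and the 1 fibroblast gene tested was lower. These marker counts also move with the scaling. Without it the red cell sums overlap, at 260373 to 367890 in vehicle and 221776 to 330868 in amiodarone blood, with 2 of 5 genes lower. B cell markers become 4 higher of 4, the fibroblast gene no longer passes, and neutrophil markers stay at 5 higher of 5. The part of this shift in cell markers in the rises of the Vps, Snx and Chmp genes was not tested. Within the first slide the median blood difference of the 47 genes was 0.72, with 43 above 0, and within the other 0.79, with 42 above 0. With slide as a block 32 of 47 passed.

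The differences in blood were set side by side under 7 treatments: scaling on the 75th percentile, the array median, quantiles, the probes detected on all arrays or the spike-ins, no scaling, and the authors' deposited value table. All but the quantiles and the deposited table differ only by 1 factor per array, so the 7 are not independent checks. Under all 7, 19 of the 47 genes were higher past the threshold, against 25.7% of all features. Of the 34 genes measured on all 6 arrays 14 were, and the share over all features measured so is not given here. By the probe read, 5 of the 19 (Snx10, Snx19, Snx27, Vps37a and Vps54) were not well above background on any vehicle array. These entered only through the amiodarone group. Normexp, under which 0 of 47 passed, is not among the 7. The 19 were Chmp4b, Chmp6, Chmp7, Snx10, Snx14, Snx19, Snx20, Snx27, Snx5, Snx6, Vps11, Vps13d, Vps26b, Vps29, Vps33a, Vps35, Vps37a, Vps4b and Vps54. The other rises called after 75th percentile scaling were not past the threshold under all 7. Snx1 was higher past it under 4, Vps13a, Vps33b and Vps52 under 5. Chmp2a, Chmp5, Snx18, Vps36, Vps37b and Vps53 were so under 6. In the authors' deposited table, 10 of the 31 scaled calls in either direction were lost. None of the 47 was lower under all 7. Leaving out amiodarone replicate 1 gave the fewest scaled calls, 21 of 47.

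**Figure D3:**
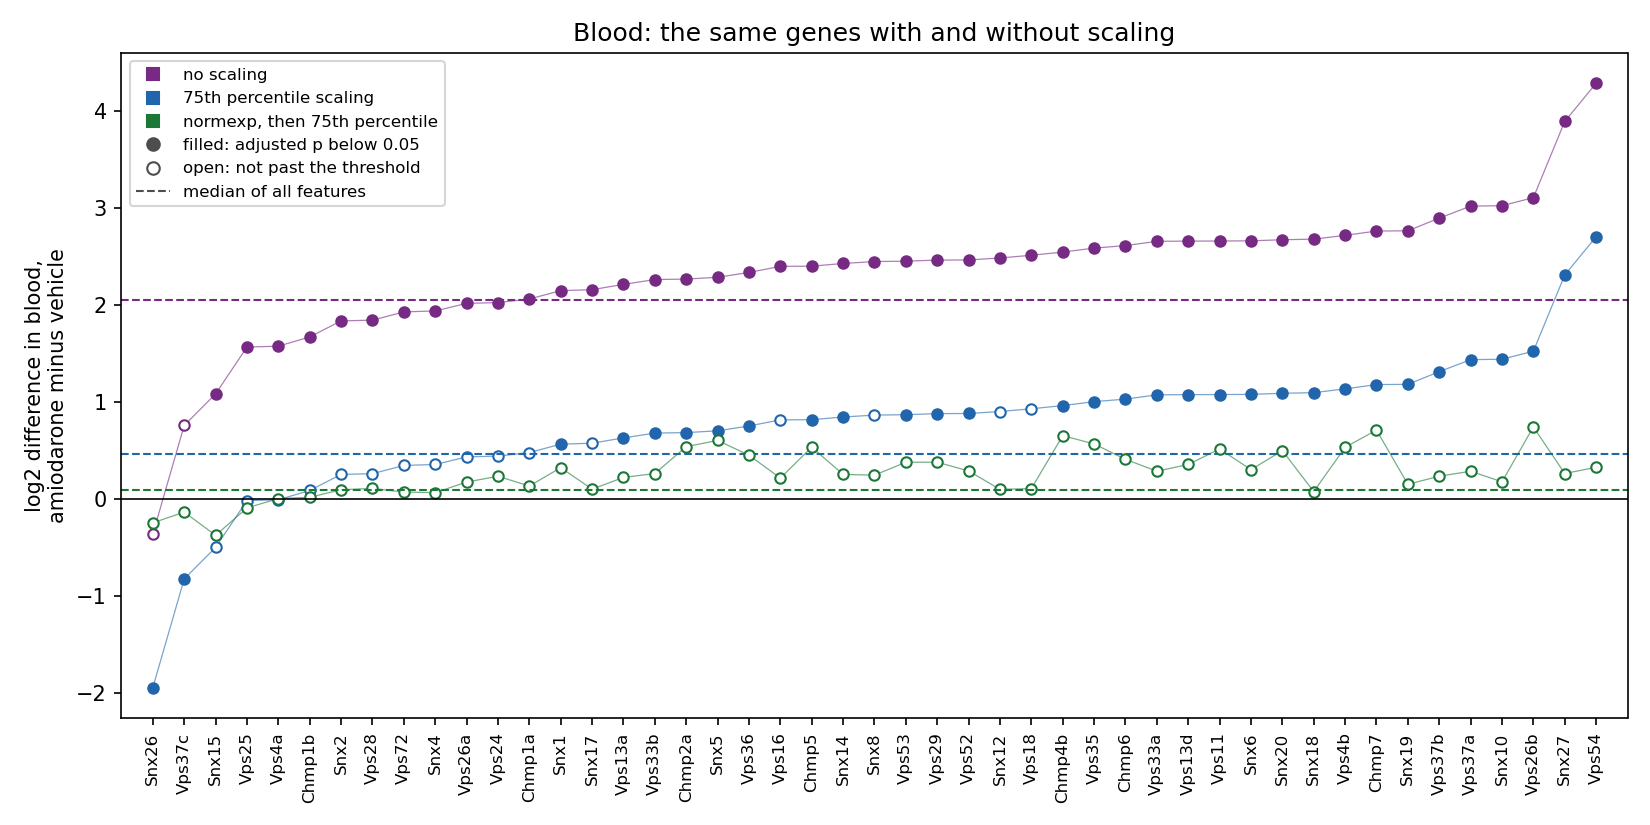
Log2 difference between amiodarone and vehicle blood for the 47 tested genes, ordered by the scaled value, without scaling (purple), with 75th percentile scaling (blue) and with normexp background correction (green). The distance between purple and blue is 1.58 for every gene, and the green points, none of them filled, lie mostly between 0 and 0.74.

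The drug effect in blood differed from that in heart for 19 of the 45 genes tested in both tissues, 17 more positive in blood and 2 (Snx26 and Snx15) more negative, where 51.5% of 13012 features differed (32.7% higher and 18.8% lower). Vps37b, lower in heart and higher in blood, had a difference of effects of 2.33 ± 0.43 (adjusted p = 0.0016). Vps26b differed by 1.51 ± 0.28 (adjusted p = 0.0015) and Chmp6 by 1.22 ± 0.24 (adjusted p = 0.0021). By the probe read, 5 of the 19 (Snx27, Vps54, Vps37a, Snx19 and Snx18) were not well above background on any vehicle blood array. That probe gives no measured size of their difference. Vps37a has another probe, well above background on all 3 arrays of each group. It differed by 1.38 ± 0.28 in blood and by -0.03 ± 0.22 in heart. The retromer subunits Vps29 and Vps35 had differences of effects of 0.68 ± 0.27 (adjusted p = 0.051) and 0.70 ± 0.34 (adjusted p = 0.098) and did not pass. Without scaling the count was 43, all more positive in blood, and with normexp it was 1.

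In vehicle pools most of these genes were higher in heart than in blood. Of 53 tested, 32 were higher in heart and 5 lower, relative to each array's 75th percentile, where 81.9% of 18524 features differed (46.4% higher and 35.5% lower). The median difference, heart minus blood, was 0.95 for the 53 genes and 0.42 for all features. Chmp4c, Snx7, Snx13, Snx16, Snx19, Snx24, Snx27, Snx33, Vps18, Vps37a and Vps45 were among the genes higher in heart. For each, the probe read was not well above background on any vehicle blood array. These genes entered only through vehicle heart, so the count and the median of the 53 genes are biased towards heart. All features passed the same filter. Among genes measured on all 6 arrays, the retromer subunits Vps26b and Vps29 had the largest positive differences, 2.77 ± 0.20 (adjusted p = 9.2e-08) and 2.75 ± 0.20 (adjusted p = 7.8e-08), followed by Vps13d at 2.18 ± 0.20. Vps35 was higher in heart by 1.64 ± 0.24, while Vps26a differed by 0.30 ± 0.17 (adjusted p = 0.11).

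Chmp4c had signals of 486, 528 and 489 in vehicle heart and 4.50, 3.08 and 1.97 in vehicle blood, where it was not well above background, a level at least 9.80-fold higher in heart (adjusted p = 4.2e-07). Snx33 was at least 2.75-fold higher in heart (adjusted p = 3.1e-06) and Snx7 at least 2.17-fold (adjusted p = 2.2e-07). For Vps37a, the probe read gave a level at least 8.52-fold higher in heart (adjusted p = 1.0e-08). The other Vps37a probe had clear signal on every vehicle array of both tissues. Its mean scaled log2 levels were 0.57 in heart and -0.48 in blood, a smaller gap than that bound. The size for Vps37a therefore depends on the probe, and no test of the smaller gap is given here.

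After scaling, the 5 genes higher in vehicle blood were Snx20, Snx26, Snx8, Vps37c and Snx15. Mean unscaled signals were higher in vehicle heart for Snx8 (30.9, against 17.0 in vehicle blood), Vps37c (36.2 against 15.9) and Snx15 (504 against 171). The direction of Snx8, Vps37c and Snx15 therefore turns with the scaling. For Snx26 the mean signals were close, at 17.5 in vehicle heart and 19.8 in vehicle blood. No unscaled test of this contrast is given here. Snx20 had signals of 7.85, 14.7 and 8.84 in vehicle heart, with 1 of 3 arrays well above background, and 59.5, 40.2 and 39.8 in vehicle blood. It passed the threshold, and since most of its heart arrays had no signal well above background its size is not given. Snx26 differed by -2.67 ± 0.35 and Snx8 by -1.52 ± 0.33. Of the HOPS core, Vps11 was higher in heart by 1.30 ± 0.22 and Vps18 at least 1.08-fold (adjusted p = 0.046), while Vps16 differed by 0.77 ± 0.43 (adjusted p = 0.12) and Vps33a by -0.59 ± 0.27 (adjusted p = 0.063).

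**Figure D4:**
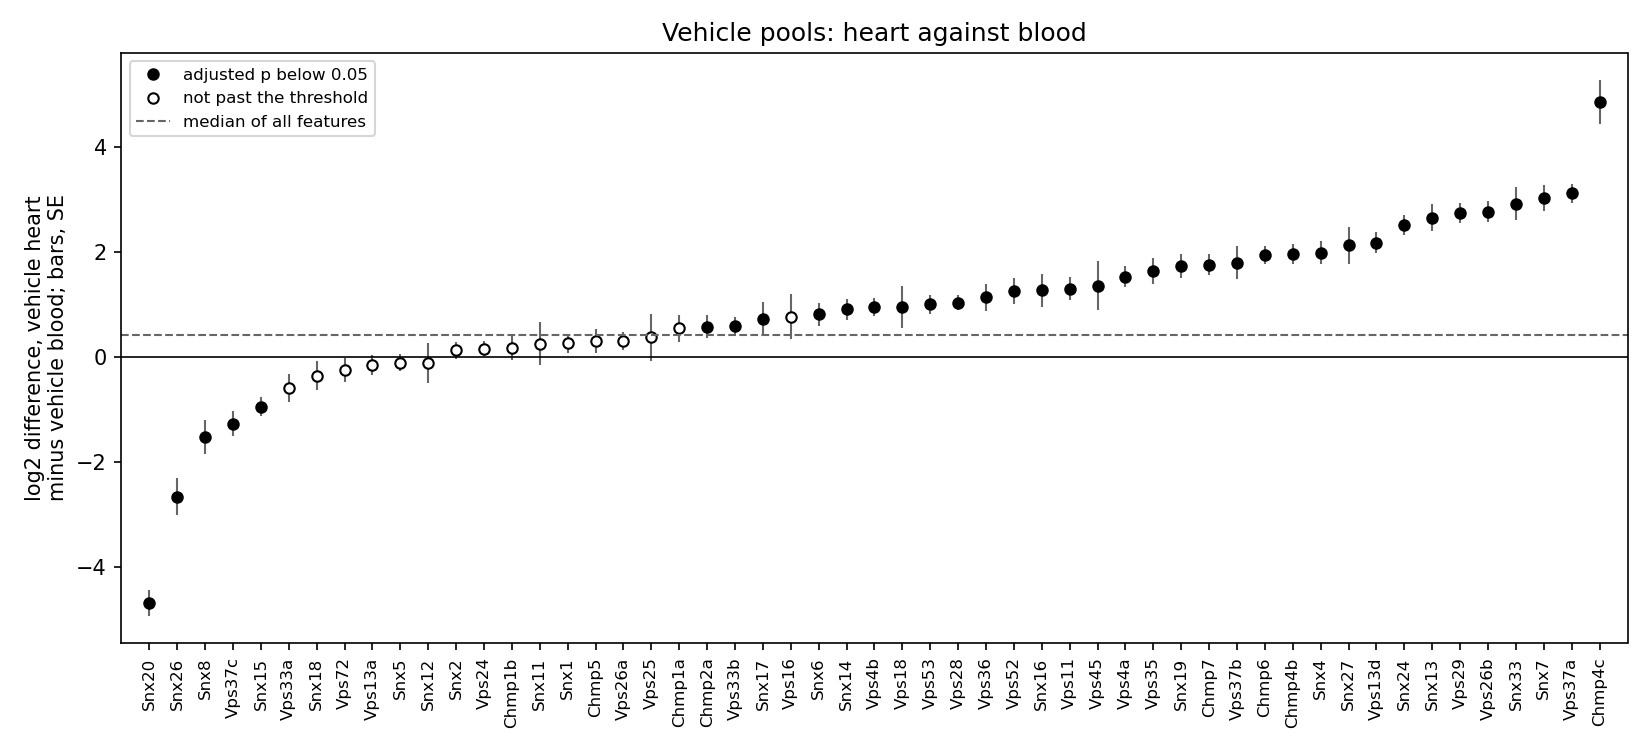
Scaled log2 difference between vehicle heart and vehicle blood for the 53 genes tested, with SE bars, 3 arrays in each group and filled points past the adjusted threshold. Snx20 at -4.69 and Chmp4c at 4.86 are the ends, both fitted values with 1 tissue near background and so not measured sizes, and the dashed line at 0.42 is the median of all features.

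Genes of the same pathways outside the families were counted from lists written with earlier results of these data known. In heart 0 of 11 ESCRT partners, 0 of 8 genes of phosphatidylinositol 3-phosphate, 0 of 12 endosomal Rab and tether genes and 0 of 12 WASH and CCC genes passed limma's threshold. Unadjusted p was below 0.05 for 2, 2, 3 and 2 of them. Of 9 receptors that these routes sort, 1 passed in heart, the transferrin receptor Tfrc, which fell by 3.31 ± 0.27. Tfrc is also a marker of reticulocytes.

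In scaled blood, where 41.5% of all features were higher and 26.6% lower, 3 of 10 ESCRT partners rose and 0 fell. They were Ptpn23 (1.58 ± 0.28), an ESCRT-binding phosphatase relative, Vta1 (0.99 ± 0.20), a cofactor of Vps4, and the ESCRT-II subunit Snf8 (0.65 ± 0.15). Of 7 genes of phosphatidylinositol 3-phosphate 6 rose, among them Becn1 (0.74 ± 0.17), the kinase adaptor Pik3r4 (1.06 ± 0.25) and Vac14 (0.73 ± 0.16). The kinase itself, Pik3c3, is named here for being the mammalian Vps34 and not for its rank, and it rose by 1.54 ± 0.37. Of 10 Rab and tether genes 3 rose: Rab7a (1.69 ± 0.29), which recruits retromer and HOPS to late endosomes, Rabep1 (0.61 ± 0.16) and Zfyve20 (0.82 ± 0.22). Of 11 WASH and CCC genes 7 rose, led by Commd5 (1.07 ± 0.19), and Commd1 fell (-0.74 ± 0.17). Each passed limma's adjusted threshold. Without scaling Commd1 passed in the opposite direction, at 0.84 ± 0.33, and the counts of higher genes were 9 of 10, 7 of 7, 9 of 10 and 11 of 11, with 0 lower, where 75.4% of features were higher.

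Of 9 sorted receptors 5 rose and 2 fell in scaled blood. Sort1, the sortilin receptor that retromer returns to the Golgi, rose by 2.97 ± 0.19 and its relative Sorl1 by 1.79 ± 0.20. M6pr, a mannose 6-phosphate receptor that carries hydrolases to lysosomes, rose by 1.09 ± 0.18. Tfrc (-2.22 ± 0.21) and Egfr (-1.79 ± 0.35) fell. Without scaling 7 of the 9 were higher and 0 lower, and Tfrc (-0.63 ± 0.34) and Egfr (-0.21 ± 0.35) did not pass. Medians in scaled blood were 0.53 for ESCRT partners, 0.73 for the phosphatidylinositol 3-phosphate genes, 0.43 for Rabs and tethers, 0.69 for WASH and CCC and 0.72 for receptors, beside 0.46 for all features.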

How the data were processed

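RNA from 12 pools was hybridised to single-colour Agilent arrays (design 014879, coordinates rn4), 1 array per pool. Per the file headers, the deposited intensity is Agilent Feature Extraction 9.5.1.1's processed signal, background-subtracted and detrended within each array, with no scaling between arrays; mean and background intensities were deposited beside it and used for normexp. The other deposited columns, per the file headers, are flags for signal above background, saturation and outlier spots. The authors' deposited value table holds linear intensity normalized separately for heart and blood by a method not given in the sources used here. Against the scanner values each of its columns has its own shift, and it was used as an alternative within each tissue only.

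Control spots and outlier flags were left out and spots of 1 probe averaged. The log2 of the deposited signal, minus log2 of the array's 75th percentile, was fitted with limma 3.58.1 in R 4.3.3 (lmFit, eBayes, Benjamini-Hochberg adjustment over all features, two-sided). A feature is 1 gene name, read from its brightest probe over 12 arrays among those flagged above background by all 3 arrays of some group. Each tissue was fitted alone, and the difference of drug effects and the vehicle tissue contrast over all 12 arrays. Normexp used an offset of 50. Groups came from the labels. Intensities carry no read counts, so precision is limited by 3 arrays in each group. The fitting code was tested on simulated data.

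Members and lists were chosen with earlier results of these data known. Values per array are given for retromer, HOPS, ESCRT-II, ESCRT-III and Vps4, for up to 8 called rises and falls per tissue and for the 5 smallest p of the difference, and pathway genes are named by smallest p; a few others, named for their role, were added after their values were seen. Deviations of same-numbered replicates from their group means had r from -0.24 to 0.32 in heart and from 0.08 to 0.31 in blood. The highest was that of replicate 3 in either tissue, and whether the replicates deviate together was not tested. Alternatives covered scaling, background, the filter on dim probes, probe choice, slide, a replicate block and leaving out each array. Of the 62 genes, 51 were matched to RefSeq by accession, 10 by symbol and 1 (Snx26) not.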

Additional observations from a re-analysis of the deposited data

Results flagged for a closer look

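The drug effect in blood differed from the drug effect in heart for 19 genes by limma's test of the difference itself, on scaled values with 3 pools in each group. Among the retromer genes and their nexins, the effect in blood minus that in heart was 1.51 ± 0.28 (adjusted p = 0.0015) for Vps26b, 2.45 ± 0.48 (adjusted p = 0.0019) for Snx27, 0.95 ± 0.29 (adjusted p = 0.019) for Snx6 and 0.68 ± 0.26 (adjusted p = 0.044) for Snx1. For the tethers it was 1.01 ± 0.30 (adjusted p = 0.015) for Vps11, 1.80 ± 0.36 (adjusted p = 0.0023) for Vps54 and 1.17 ± 0.34 (adjusted p = 0.014) for Vps52. Among the ESCRT genes it was 2.33 ± 0.43 (adjusted p = 0.0016) for Vps37b, 1.04 ± 0.24 (adjusted p = 0.0051) for Vps37a, 1.22 ± 0.24 (adjusted p = 0.0021) for Chmp6, 1.05 ± 0.27 (adjusted p = 0.0078) for Chmp7, 0.67 ± 0.25 (adjusted p = 0.041) for Chmp4b, 0.54 ± 0.20 (adjusted p = 0.039) for Vps24 and 0.79 ± 0.23 (adjusted p = 0.014) for Vps4b. The lipid transfer gene Vps13d differed by 0.72 ± 0.27 (adjusted p = 0.045). The other sorting nexins were Snx19 at 1.53 ± 0.32 (adjusted p = 0.0026), Snx18 at 1.12 ± 0.38 (adjusted p = 0.029), Snx15 at -0.78 ± 0.25 (adjusted p = 0.021) and Snx26 at -1.70 ± 0.49 (adjusted p = 0.013). The values of Snx27, Vps54, Vps37a, Snx19 and Snx18 rest on vehicle blood signals not well above background on any array, so they are fitted values and not measured sizes. With no scaling 0 genes passed as more negative in blood, Snx15 and Snx26 included.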

How the results depend on the processing

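The blood counts rest on the treatment of the arrays' unequal brightness, and the heart calls on 3 arrays per group. Of 54 genes in heart, 2 passed; 1 passed with no scaling, with the 75th percentile of probes detected on all arrays, with spike-in scaling, with the mean of the passing probes, with every probe as a feature and with slide as a block, and 0 with no filter on dim probes or with the first slide alone. With all 12 arrays in 1 fit 1 passed, Snx2 at 0.63 (adjusted p = 0.038 by limma), and neither Vps37b nor Vps33b did. With a replicate block 1 passed in heart, 28 in blood and 18 for the difference between tissues. Since the labels state no pairing of pools by number, this is given as a count only. Leaving out 1 array gave 0 to 2 in heart, with 0 without vehicle replicate 3 or amiodarone replicate 2. It gave 21 to 32 in blood, 13 to 20 for the difference and 34 to 40 for the vehicle tissue contrast. In blood 31 passed and 0 did with normexp. The difference count of 19 became 43 with no scaling, 38 with spike-in scaling and 1 with normexp. The tissue count of 37 became 24 with the stricter filter, which tests fewer genes. The heart median of 0.09 became -0.049 with no scaling. The blood median of 0.86 became 2.45 with no scaling, 2.11 with spike-ins, 1.14 with array medians, 0.72 with the probes detected on all arrays, 0.25 with normexp, 0.52 in the authors' deposited table, 0.69 with no filter, 0.73 with the stricter filter and 0.72 with the first slide alone. Vps37c in blood turned from -0.83 to 0.76 with no scaling and to 0.42 with spike-ins. For changes beyond those that scaling, normexp's offset or fewer genes and arrays give by construction, the cause was not tested. Signal over background limits 23 genes in vehicle blood, where the probe read was not well above it on any array.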
